A study of Mus musculus with 11 samples.

Results

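A set of 10 genes of the Wnt and beta-catenin pathway was followed in the endothelial cells (ECs) of mouse cerebral cortex. They were chosen by name: the targets *Axin2*, *Lef1*, *Apcdd1*, *Nkd1* and *Tcf7*, the receptor complex genes *Fzd4*, *Tspan12*, *Reck* and *Gpr124*, and the ligand *Wnt5a*. All 10 were found among the 26921 genes of the count files. Cells of myelin-depleted cortex of C57BL/6 mice were captured on the 10x Chromium droplet system, which tags each captured transcript so that copies can be counted once, as unique molecular identifiers (UMIs). The libraries comprised 4 of juvenile mice (postnatal day 10), 3 adult libraries (7 to 11 weeks), 2 aged libraries (18 months) and 2 libraries of mice with experimental autoimmune encephalomyelitis (EAE). Tissue of 6 (juvenile, adult) or 3 mice (aged, EAE) was pooled, and the sources used here do not say whether libraries of a condition shared a pool. EAE, a model of multiple sclerosis, was induced in females of 7 to 11 weeks with the myelin peptide MOG35–55 in complete Freund's adjuvant and pertussis toxin, and cortex was taken at the peak of disease. The adult mice were untreated, so that disease, adjuvant and toxin cannot be told apart in that comparison.

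In the GRCm38 build (GENCODE M21), all 10 are protein-coding genes: *Axin2* lies at chr11:108920349-108950783 (+), *Lef1* at chr3:131110471-131224356 (+), *Apcdd1* at chr18:62922231-62961179 (+), *Nkd1* at chr8:88521354-88594884 (+), *Tcf7* at chr11:52252371-52283014 (−), *Fzd4* at chr7:89404355-89413134 (+), *Tspan12* at chr6:21771395-21852515 (−), *Reck* at chr4:43875530-43944806 (+), *Gpr124* at chr8:27085583-27123436 (+) and *Wnt5a* at chr14:28504750-28527448 (+). Exons of *Axin2*, *Lef1*, *Tspan12*, *Gpr124* and *Wnt5a* overlap those of a gene on the other strand (73 to 1208 bases). The strand setting of the counting was not given in the sources used here.

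In the canonical Wnt pathway, a Wnt ligand binds a Frizzled receptor and its Lrp5 or Lrp6 co-receptor, and beta-catenin then escapes degradation, enters the nucleus and activates transcription together with TCF and LEF factors. In brain vessels this signal drives vessel growth into the neural tissue and maintains the blood-brain barrier. *Reck* and *Gpr124* (current symbol *Adgra2*) encode membrane proteins that let ECs respond to Wnt7a and Wnt7b, while *Fzd4* and *Tspan12* encode the receptor and co-activator of the norrin signal. *Axin2*, *Nkd1* and *Apcdd1* encode negative regulators that are switched on by the signal itself, *Lef1* and *Tcf7* encode transcription factors of the pathway, and *Wnt5a* encodes a ligand known mostly for signals that do not use beta-catenin.

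The promoters of 3 members are shown because these genes had the widest differences between ages or vessel types (*Reck*, *Nkd1*) or are the common readout of the pathway (*Axin2*). Each run is the 250 bases before a RefSeq start (GRCm38.p6), 5′ to 3′ on the strand of the gene, and capitals mark a TCF/LEF word. The windows are chr4:43875280-43875529 for *Reck*, chr8:88527383-88527632 for *Nkd1*, a start inside the gene, and chr11:108920099-108920348 for *Axin2*.
Reck: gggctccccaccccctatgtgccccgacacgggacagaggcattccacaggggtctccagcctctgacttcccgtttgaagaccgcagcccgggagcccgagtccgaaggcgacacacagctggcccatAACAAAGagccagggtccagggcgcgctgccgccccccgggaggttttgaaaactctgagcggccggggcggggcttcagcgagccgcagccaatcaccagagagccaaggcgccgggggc
Nkd1: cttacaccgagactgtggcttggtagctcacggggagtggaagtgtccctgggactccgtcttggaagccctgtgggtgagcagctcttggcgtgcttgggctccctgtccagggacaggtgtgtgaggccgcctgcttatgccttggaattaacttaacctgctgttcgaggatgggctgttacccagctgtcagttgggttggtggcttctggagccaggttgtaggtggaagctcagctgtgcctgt
Axin2: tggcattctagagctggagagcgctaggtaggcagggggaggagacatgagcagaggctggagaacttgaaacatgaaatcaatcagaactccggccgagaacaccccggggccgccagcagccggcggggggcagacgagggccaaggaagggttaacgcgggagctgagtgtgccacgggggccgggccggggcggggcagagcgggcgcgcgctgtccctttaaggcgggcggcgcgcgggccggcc
The words searched, on both strands, were CTTTGAA and its variants CTTTGAT as well as CTTTGTA and also CTTTGTT. Among the members, 7 had RefSeq windows, 11 in all, and 2 of these held a word: the *Reck* window, where AACAAAG, a match on the other strand, begins 121 bases before the start, and a window at a start inside *Lef1*, where TACAAAG begins 147 bases before it. Of 32851 promoter windows of the same length, 14.8% held one of these words.

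Filters left 50625 of 54646 barcodes, of which 21170 clustered as ECs (510 to 3665 per library), and the EC genes *Cdh5* (345.5 to 452 CPM) and *Pecam1* (488 to 778 CPM) were present in every library. CPM is the count of a gene in the summed cells of a type in 1 library, scaled to counts per 1000000 UMIs. Libraries held 15755504 to 34326349 UMIs, and ECs 2254 to 8321 UMIs per cell at the median, with more in juvenile than in other libraries. Libraries of a condition came in near-identical pairs. The chi-square of EC counts per degree of freedom, which is 1 for counting error alone, was 1.41 between Adult 2 and 3, 1.92 to 2.60 within the pairs Juvenile 1 and 2, Juvenile 3 and 4, Aged and EAE, and 12 to 14.5 between the juvenile pairs, and Adult 1 stood apart from Adult 2 and 3 (30.6 and 31.4). Of the 859 ECs of Adult 1, 759 fell in a cluster with 43 and 35 cells of Adult 2 and 3. Red blood cells were its best marker match (3 markers) and ECs its second (7 markers). It was named EC because hemoglobin made up 0.813% of its UMIs, below a limit of 5%. Adult 2 and 3, the closest pair, were summed as 1 sample and the other pairs were kept apart, which gives n = 4 juvenile, 2 adult, 2 aged and 2 EAE samples. p-values measure the spread between these samples, which may be technical, and member calls in ECs and mural cells that were lost with each pair as 1 sample are given with their values. No fit with every pair as 1 sample was made for the EC subtypes or for the difference between ECs and mural cells. Leaving out Adult 1, an aged or an EAE library leaves 1 sample in that group, which is then assumed to vary like the other groups. At most 113 cell barcodes were shared by 2 libraries (1.4% of the smaller one).

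**Figure D1:**
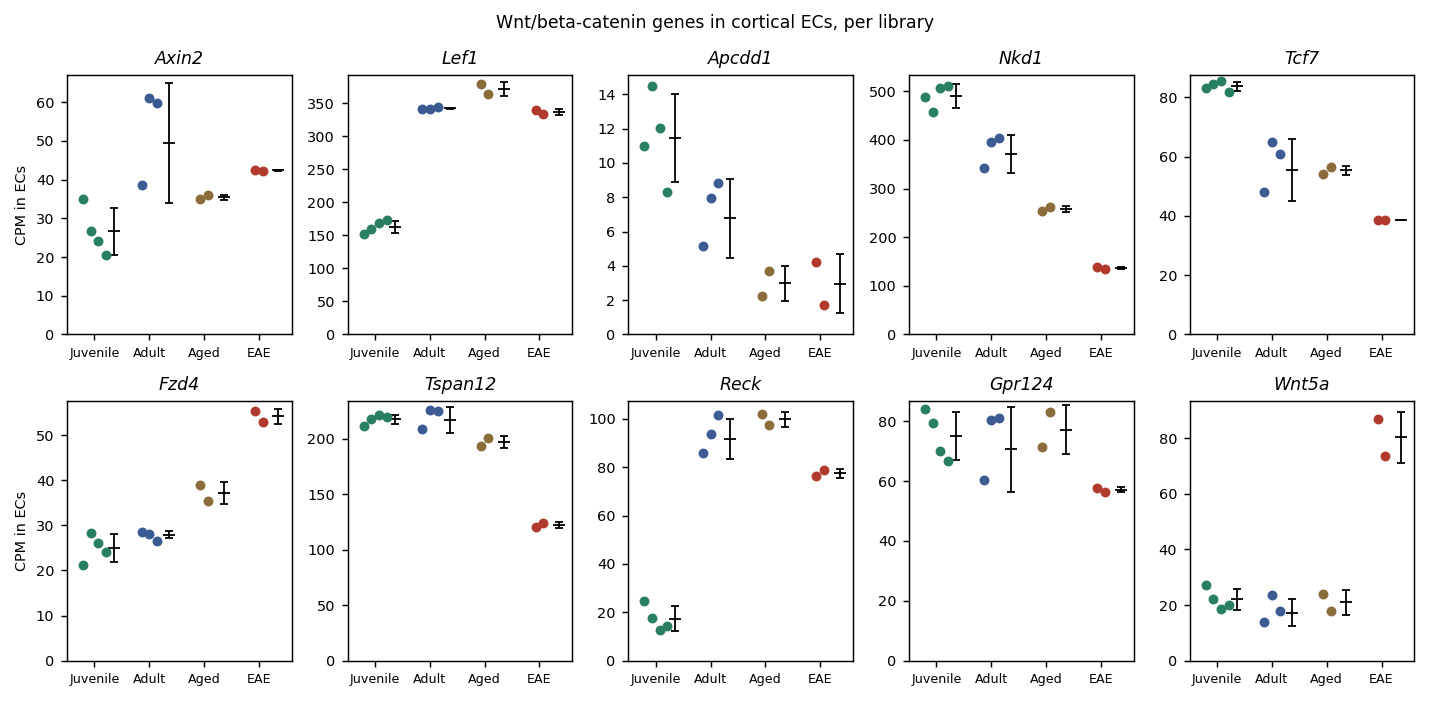
CPM of the 10 members in the summed ECs of each library, with 1 point per library (4 juvenile, 3 adult, 2 aged and 2 EAE) and bars for the mean ± SD over samples, in which Adult 2 and 3 count as 1. Reck was between 12.9 and 24.8 CPM in juvenile and between 85.7 and 101.5 CPM in adult libraries, and Wnt5a reached 73.7 and 86.8 CPM in the EAE libraries.

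The comparison of juvenile with adult ECs asks how pathway genes differ between vessels that still grow and mature vessels. In juvenile ECs the targets did not move one way: *Nkd1* and *Tcf7* were higher than in adult ECs, and *Lef1* and *Axin2* were lower. *Reck* was 5.13-fold lower, the widest difference of the members, while *Fzd4*, *Tspan12* and *Gpr124* did not pass the test. In all, 5 of 10 members were called (2 higher, 3 lower), beside 43.7% of the 13733 genes tested (21.2% higher, 22.6% lower), so the share of members called is near that of all genes. Markers of other cell types also differed between these EC sums. The 6 markers of choroid plexus cells summed to 20850 to 52820 CPM in adult ECs, highest in Adult 1, and to 3911 to 9448 CPM in juvenile, aged and EAE ECs. Similarly, 3 red blood cell markers (*Hba-a1*, *Hbb-bs* and *Alas2*) summed to 15860 CPM in Adult 1 against 866 and 987 CPM in Adult 2 and 3. One unnamed EC cluster, led by choroid plexus genes, held 12% of the ECs of Adult 1 and 0.185% to 1.67% of those of the other libraries. Without it, in an alternative chosen after seeing the data, the choroid markers were still at 17010 to 50250 CPM in adult ECs, and the same members were called in juvenile, aged and EAE ECs. The part of the remaining signal in the results was not tested.

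*Nkd1*, an antagonist that binds Dishevelled proteins, was at 488, 457, 507 and 511 CPM in the juvenile libraries and at 343, 395 and 403 CPM in the adult ones. All juvenile libraries were above all adult ones, and *Nkd1* was higher by 0.47 ± 0.10 (SE) on the log2 scale (adjusted p = 0.00205). *Tcf7* was at 83.2, 84.6, 85.4 and 81.9 CPM in juvenile and at 48.0, 65.0 and 61.0 CPM in adult ECs. The groups did not overlap, and the log2 fold change was 0.64 ± 0.10 (adjusted p = 0.000365).

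*Lef1*, the other transcription factor, had 152, 160, 168 and 173 CPM in juvenile against 342, 342 and 345 CPM in adult ECs. Its juvenile level was 1.99-fold lower, with no overlap (log2 fold change −0.996 ± 0.0875, adjusted p = 2.77e-06). *Axin2*, a scaffold of the complex that degrades beta-catenin, was at 35.0, 26.8, 24.2 and 20.6 CPM in juvenile and 38.5, 61.1 and 59.7 CPM in adult ECs. All juvenile libraries were lower, but Adult 1 lay near Juvenile 1 (log2 fold change −0.88 ± 0.19, adjusted p = 0.00327). *Apcdd1*, an inhibitor at the cell surface, was low throughout, with 8.29 to 14.5 CPM in juvenile and 5.15 to 8.84 CPM in adult ECs, and did not pass the test (log2 fold change 0.74 ± 0.33, adjusted p = 0.0900), except without a filter on low counts (0.71, adjusted p = 0.0218).

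Of the receptor complex genes, *Reck* had 24.8, 17.7, 12.9 and 14.3 CPM in juvenile and 85.7, 93.7 and 101.5 CPM in adult ECs, that is 17.4 ± 5.32 (SD, n = 4) against 91.7 ± 8.45 CPM (SD, n = 2). The groups were far apart (log2 fold change −2.36 ± 0.17, adjusted p = 1.15e-06). *Gpr124*, the partner of *Reck*, was at 66.6 to 84.0 CPM in juvenile and 60.5 to 81.0 CPM in adult ECs, and the groups overlapped (log2 fold change 0.13 ± 0.12, adjusted p = 0.405). For *Tspan12* both means were 217 CPM (log2 fold change 0.07 ± 0.08, adjusted p = 0.497), and for *Fzd4* they were 24.9 ± 3.07 and 27.9 ± 0.811 CPM (log2 fold change −0.08 ± 0.12, adjusted p = 0.621). Inside EC subtypes, described below, *Tspan12* differed with age in both directions. *Wnt5a* was at 18.8 to 27.4 CPM in juvenile and 13.8 to 23.5 CPM in adult ECs, with overlap (log2 fold change 0.34 ± 0.19, adjusted p = 0.171), and was called higher without Adult 2 (0.50, adjusted p = 0.0426). In some EC subtypes, described below, the ages did not overlap for *Wnt5a*. With each near-identical pair as 1 sample, *Reck*, *Lef1* and *Tcf7* remained called, and *Axin2* (adjusted p = 0.0606) and *Nkd1* (adjusted p = 0.107) did not.

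In the rest of the pathway and its barrier targets, 26 of 55 genes tested were called (47.3%, beside 43.7% of all genes). Of these, 4 of 7 feedback and target genes tested were higher in juvenile ECs and 0 lower (median log2 fold change 0.46, beside −0.05 over all genes tested). They include the cell cycle genes *Myc* (34.4 ± 8.78 against 3.19 ± 0.481 CPM, adjusted p = 8.48e-07) and *Ccnd1* (97.3 ± 3.54 against 25 ± 1.90 CPM, adjusted p = 3.31e-08), both also controlled by other growth signals, the transcription factor *Sp5* and the receptor-degrading ligase *Znrf3*. A cluster of 192 ECs led by cell division genes such as *Birc5* and *Cdc20* came from juvenile libraries only. It is part of these sums, and its part in the result was not tested. The other lists went both ways: 3 higher and 2 lower of 14 other receptors, 3 and 3 of 15 cytoplasmic and nuclear genes, 2 and 2 of 7 secreted inhibitors and their co-receptors, and 1 and 1 of 3 ligands. *Tcf7l2*, a factor of the same family as *Tcf7*, was higher (221 ± 15.0 against 127 ± 26.3 CPM, adjusted p = 0.000131), and so was *Ctnnbip1*, which keeps beta-catenin from TCF factors (234 ± 10.1 against 138 ± 1.93 CPM, adjusted p = 1.26e-05). The co-receptor *Lrp5* (28.4 ± 5.55 against 46.3 ± 3.70 CPM, adjusted p = 0.00190) and the kinase *Gsk3b* (294 ± 19.8 against 364 ± 41.0 CPM, adjusted p = 0.0484) were lower.

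*Ctnnb1*, which encodes beta-catenin, was called lower (adjusted p = 0.0212), but its level differed widely between libraries of 1 condition, from 55.6 to 146 CPM in juvenile and from 206 to 324.5 CPM in adult ECs, and in microglia it was at 14.3 to 39.3 against 25.9 to 53.8 CPM. *Ctnnb1* was among the leading genes of the cluster that held most ECs of Adult 1. Of the barrier genes, the glucose transporter *Slc2a1* (871 ± 137 against 2410 ± 377 CPM) and the efflux pump *Abcb1a* (282 ± 17.0 against 825 ± 131 CPM) were lower, and the lipid transporter *Mfsd2a* (704 ± 115 against 374 ± 8.39 CPM) and *Foxf2* (adjusted p = 0.0287) were higher.

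**Figure D2:**
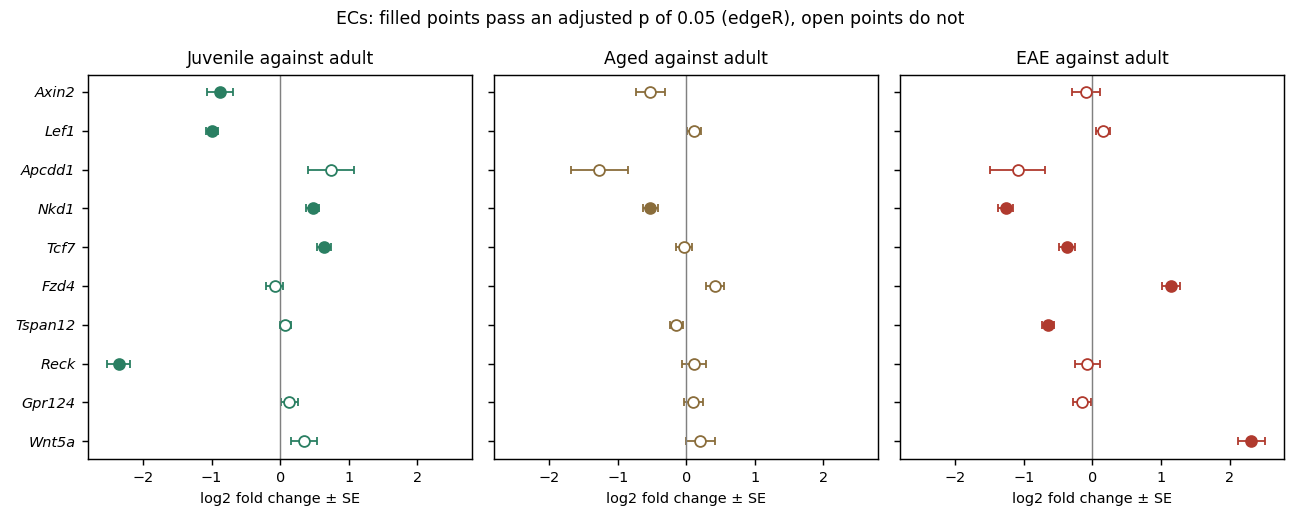
Log2 fold change ± SE of the 10 members in ECs against adult ECs, from edgeR, for juvenile, aged and EAE samples, with filled points for an adjusted p below 0.05. The call goes to 5 members in juvenile, 1 in aged and 5 in EAE ECs, and Reck in juvenile (−2.36) and Wnt5a in EAE ECs (2.32) lie farthest from 0.

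Between aged (18 months) and adult ECs, 1 of 10 members was called, beside 5.61% of the 13733 genes tested. This was *Nkd1*, at 254 and 263 CPM in aged ECs against 343, 395 and 403 CPM in adult ECs. Both aged libraries were below all adult ones, and *Nkd1* was 1.44-fold lower (log2 fold change −0.53 ± 0.11, adjusted p = 0.0198). The call was lost without Aged 1 (log2 fold change −0.50), Aged 2 (−0.52), EAE 1 (−0.51) or EAE 2 (−0.51) and with the pairs summed (−0.48). It was also lost with the fit restricted to adult and aged samples (−0.54, adjusted p = 0.0910). The value itself stayed near the −0.53 of the main fit. In the same sums, 6 neuron markers were at 339 and 317 CPM in aged against 85.4 to 94.5 CPM in adult ECs, 5 neutrophil markers at 201 and 260 against 33.9 to 42.2 CPM and the choroid markers at 7226 and 9448 CPM. *Stmn2*, a gene of the neuron list, was also among the leading genes of the arterial-side capillary EC cluster. The neuron sum can therefore hold transcripts of ECs. The red blood cell markers were at 10190 and 7262 CPM, between Adult 1 and Adult 2 and 3, and the oligodendrocyte markers at 27.1 and 32.1 against 120 to 201 CPM. The part of these markers in the result was not tested.

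The other targets gave values that did not pass. *Apcdd1* had 2.25 and 3.69 CPM in aged against 5.15 to 8.84 CPM in adult ECs (log2 fold change −1.27 ± 0.41, adjusted p = 0.0963). It was called lower in 3 of 24 alternatives (adjusted p = 0.00430 without a filter, 0.0371 with 11 libraries and 0.0459 in venous-side capillary (CapV) ECs alone). In CapV ECs less a cluster led by hemoglobin genes it was not called (0.0959), with a log2 fold change of −1.44 beside −1.52 in all CapV ECs. *Axin2* had 35.0 and 35.9 CPM (log2 fold change −0.53 ± 0.21, adjusted p = 0.174), and without Adult 1, the adult library with the lowest *Axin2*, it was called lower (−0.77, adjusted p = 0.0281). *Lef1* was at 379 and 364 CPM (log2 fold change 0.11, adjusted p = 0.547) and *Tcf7* at 54.3 and 56.5 CPM (−0.03, adjusted p = 0.913).

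Among receptor genes, *Fzd4* was at 38.9 and 35.4 CPM, above all adult libraries (26.5 to 28.5 CPM), without passing the test (log2 fold change 0.42 ± 0.13, adjusted p = 0.0883). It was called higher in 4 of 24 alternatives: without a filter on low counts (adjusted p = 0.0337), with the 11 libraries on their own (0.0445), in CapV ECs alone (0.0489) and with cells named by marker score (0.0451). In CapV ECs less the hemoglobin-led cluster it was not called (0.0857), with a log2 fold change of 0.58 beside 0.55 in all CapV ECs. *Reck* was at 102 and 97.6 CPM, against 85.7 to 101.5 CPM in adult ECs (log2 fold change 0.11 ± 0.18, adjusted p = 0.761). *Gpr124* (71.4 and 82.9 CPM) and *Wnt5a* (24.1 and 17.8 CPM) overlapped with the adult range (adjusted p = 0.697 and 0.606), and *Tspan12* was at 193 and 201 CPM (adjusted p = 0.374). Of the 55 other pathway and barrier genes tested, 3 were called, 5.45% beside the 5.61% over all genes: *Ctnnbip1* (lower), *Ccnd1* (higher, 37.2 ± 1.93 against 25 ± 1.90 CPM) and the endothelial transcription factor *Sox17* (higher, 652 ± 11.8 against 464 ± 28.5 CPM).

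In EAE the ligand *Wnt5a* was 4.99-fold and the receptor *Fzd4* 2.21-fold higher than in adult ECs, while the target *Nkd1* was 2.40-fold, *Tspan12* 1.57-fold and *Tcf7* 1.29-fold lower. *Lef1*, *Axin2*, *Reck* and *Gpr124* did not pass the test. In all, 5 of 10 members were called (2 higher, 3 lower), beside 27.6% of the 13733 genes tested (15.6% higher, 12.1% lower). Scaling mattered here: with plain library totals in place of TMM factors, the median log2 fold change of all genes moved by −0.18 and the share of higher genes among those called from 56.3% to 32.6%, and the 5 members kept their call and direction.

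*Wnt5a* was at 86.8 and 73.7 CPM in EAE and 13.8, 23.5 and 17.8 CPM in adult ECs. Both EAE libraries were above every library of the other conditions (log2 fold change 2.32 ± 0.20, adjusted p = 1e-05). *Fzd4* followed with 55.3 and 53.0 CPM against 28.5, 28.1 and 26.5 CPM (log2 fold change 1.14 ± 0.13, adjusted p = 6.27e-05). Markers of fibroblasts, the cell type with the highest *Wnt5a*, were also followed: 6 of them summed to 2.23 and 3.11 CPM in EAE ECs and to 12.7 to 21.2 CPM in adult ECs. In the same sums, 5 neutrophil markers were at 188.5 and 208 CPM in EAE against 33.9 to 42.2 CPM in adult ECs and 6 monocyte markers at 135 and 116 against 20.3 to 55.0 CPM. The 6 oligodendrocyte markers were at 5.19 and 5.58 against 120 to 201 CPM. *Nkd1* was at 133, 162 and 204 CPM in adult oligodendrocytes and at 343 to 403 CPM in adult ECs. The part of these markers in the results was not tested.

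*Nkd1* fell to 138 and 135 CPM from 343, 395 and 403 CPM (log2 fold change −1.26 ± 0.11, adjusted p = 9.17e-06), the lowest of the 4 conditions. *Tspan12* fell to 121 and 124 CPM from 209, 226 and 225 CPM (log2 fold change −0.65 ± 0.09, adjusted p = 0.000334). *Tcf7* was at 38.6 and 38.6 CPM against 48.0, 65.0 and 61.0 CPM (log2 fold change −0.37 ± 0.12, adjusted p = 0.0351). *Tcf7* is also a gene of T cells: 7 T and natural killer cell markers summed to 32.4 and 28.1 CPM in EAE ECs and 4.36 to 11.7 CPM in adult ECs, with 0 of 7 markers at 0 in the EAE libraries, and their part in the result was not tested. With the pairs summed, *Wnt5a*, *Fzd4* and *Nkd1* remained called, and *Tspan12* (adjusted p = 0.172) and *Tcf7* (0.488) did not. The call of *Tcf7* was lost in 10 of 24 alternatives, among them DESeq2 (0.0575), no filter (0.0784), only adult and EAE samples (0.101), CapV ECs alone (0.115) and each EAE library left out.

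The remaining members gave smaller values or wide errors. *Lef1* was at 340 and 333 CPM (log2 fold change 0.15 ± 0.10, adjusted p = 0.293, and −0.03 with plain totals), *Axin2* at 42.4 and 42.3 CPM, inside the adult range (−0.09 ± 0.21, adjusted p = 0.790), *Reck* at 76.2 and 78.7 CPM (−0.07 ± 0.18, adjusted p = 0.802) and *Gpr124* at 57.7 and 56.4 CPM (−0.15 ± 0.14, adjusted p = 0.441). In CapV ECs alone, *Gpr124* was called lower (−0.37, adjusted p = 0.0465), but not with the hemoglobin-led cluster left out (−0.34, adjusted p = 0.0878). *Apcdd1* had 4.20 and 1.74 CPM (−1.09 ± 0.40, adjusted p = 0.0612) and was called lower in 7 of 24 alternatives, with the largest value without EAE 1 (−1.83, adjusted p = 0.0258). The others were without Adult 1 (−1.31), plain totals (−1.26, adjusted p = 0.0399), no filter (adjusted p = 0.00477), 11 libraries (0.0219), CapV ECs alone (0.0287) and naming by score (0.0402). In CapV ECs less the hemoglobin-led cluster *Apcdd1* was not called (0.0654), at −1.13 beside −1.25 in all CapV ECs.

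Of the 55 other pathway and barrier genes tested, 17 were called (30.9%, beside 27.6% of all genes). Of the feedback and target genes among them, 3 of 7 fell and 0 rose: *Notum*, a secreted enzyme that inactivates Wnt ligands (49.7 ± 1.57 against 118 ± 18.6 CPM, adjusted p = 0.00683), *Ccnd1* (12.8 ± 1.46 against 25 ± 1.90 CPM, adjusted p = 0.000803) and *Tnfrsf19* (74.7 ± 1.23 against 122 ± 24.2 CPM, adjusted p = 0.0160). Their list had a median log2 fold change of −0.13, beside 0.01 over all genes tested. The receptor list gave 2 higher (*Ryk*, *Lrp5*) and 1 lower (*Fzd6*, 80.8 ± 1.32 against 168 ± 24.1 CPM) of 14, the cytoplasmic list 4 higher and 2 lower of 15, and the inhibitors 1 and 1 of 7. *Tcf7l2*, a TCF factor that partners beta-catenin, was among those higher (206 ± 1.97 against 127 ± 26.3 CPM, adjusted p = 0.000694). Also higher were the kinase *Csnk1a1* (342 ± 4.34 against 260 ± 9.94 CPM) and *Apc* (43.9 ± 2.31 against 38.5 ± 1.56 CPM), both of the complex that degrades beta-catenin. *Gsk3b* was lower (247 ± 2.57 against 364 ± 41.0 CPM). *Ctnnb1* was again among those called lower (44.3 ± 7.47 against 272 ± 73.8 CPM, adjusted p = 0.0104), and microglia of the same libraries had 9.65 and 9.46 CPM against 25.9 to 53.8 CPM. *Slc2a1* was higher in EAE ECs (4880 ± 46.7 against 2410 ± 377 CPM, adjusted p = 0.000528) and *Mfsd2a* lower (216 ± 3.86 against 374 ± 8.39 CPM, adjusted p = 0.0160).

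Shares of cells with a UMI were compared at equal depth. After each EC was thinned to 1500 UMIs, which left out 1.25% of juvenile, 5.87% of adult, 13.4% of aged and 13.1% of EAE ECs, a *Nkd1* UMI was found in 39.4% to 45.4% of juvenile, 38.2% to 41.6% of adult, 28.5% and 30.6% of aged and 18.0% and 18.3% of EAE ECs (exact 95% binomial interval of single EAE libraries 16.7% to 19.7%, for counting error only). Unthinned, the shares were 74.0% to 77.6%, 61.2% to 61.5%, 39.8% and 43.5%, and 29.7% and 29.9%. The juvenile and adult shares overlapped after thinning. *Wnt5a* was found in 1.94% to 2.53% of adult and 7.63% and 9.46% of EAE ECs (unthinned 4.42% to 6.44%, and 14.6% and 16%). In microglia, which should lack both, the thinned shares were 0.755% to 3.33% for *Nkd1* and 0% to 1.11% for *Wnt5a*, with upper 95% limits of up to 7.11% and 3.96%.

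Among the EC subtypes along the vessel tree, arterial ECs had little *Nkd1* and *Lef1* and much *Reck*, and venous ECs had the highest median of *Wnt5a*. ECs were clustered again without the members and the other Wnt genes, and clusters were named from markers as arterial, arterial-side capillary (CapA), CapV and venous ECs, and tip-marker ECs, while 3 clusters stayed unnamed. Of the CapV cells, 40.2% (4573) formed a cluster whose leading genes were 4 hemoglobin genes, above 2 of the CapV markers. The CapA cluster scored higher for arterial (1.47) than for CapA markers (1.09), and was named CapA because another cluster had the highest arterial score. The venous cluster was led by the immune response genes *Lcn2* and *Lrg1*. With the hemoglobin-led cluster left out of CapV, an alternative chosen after seeing the data, arterial, venous and tip-marker ECs had the same number of members called (6, 4 and 2), but in venous ECs *Gpr124* was lost (adjusted p = 0.0551) and *Tcf7* gained as lower (−0.21, adjusted p = 0.0401). Comparisons were made within libraries, over 10 samples, with near-identical pairs other than Adult 2 and 3 counted apart.

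Between arterial and CapV ECs, 6 of the 9 members tested were called, beside 30.7% of the 8742 genes tested. *Nkd1* had a median of 22.6 CPM (9.72 to 60.0) in arterial and 418 CPM (149 to 544) in CapV ECs, lower in 10 of 10 samples (log2 fold change −3.79 ± 0.14, adjusted p = 3.15e-15). *Lef1* had 102 CPM (67.7 to 151) against 357 CPM (160 to 443), again lower in 10 of 10 samples (−1.48 ± 0.10, adjusted p = 1.04e-10). *Tcf7* (43.1 against 62.7 CPM, adjusted p = 5.19e-05) and *Fzd4* (15.1 against 29.7 CPM, adjusted p = 0.00208) were lower too. The *Reck* and *Gpr124* pair went the other way in 10 of 10 samples each: *Reck* was at 323 CPM (85.7 to 514) in arterial and 75.3 CPM (7.51 to 95.7) in CapV ECs (2.61 ± 0.22, adjusted p = 8.11e-07), and *Gpr124* at 104 against 66.3 CPM (0.59 ± 0.12, adjusted p = 0.000642). *Axin2*, *Tspan12* and *Wnt5a* did not pass (adjusted p = 0.420, 0.0818 and 0.316). *Tspan12* and *Wnt5a* were each higher in arterial ECs of Juvenile 1, 3 and 4 and lower in the other 7 samples. *Tspan12* was called lower without a filter (0.0112) and without Juvenile 1 (0.0211), 3 (0.0407) or 4 (0.0339). *Apcdd1* was too low to be tested.

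Between venous and CapV ECs, 4 of 10 members were called, beside 29% of the 9926 genes tested. *Wnt5a* had a median of 60.7 CPM (32.6 to 160) in venous and 13 CPM (8.53 to 50.3) in CapV ECs and was higher in 10 of 10 samples (log2 fold change 2.03 ± 0.18, adjusted p = 9.86e-06). *Tspan12* was lower in 10 of 10 samples, at 153 against 224 CPM (−0.51 ± 0.05, adjusted p = 2.79e-08, and 0.0601 without the library block). *Gpr124* was slightly higher (0.23 ± 0.06, adjusted p = 0.00921) and *Reck* slightly lower (−0.26 ± 0.10, adjusted p = 0.0446). The call of *Reck* was lost in 9 of 17 alternatives, with DESeq2 (0.323), without the library block (0.902) and without Juvenile 2, Adult 1, 2 or 3, Aged 1 or 2 or EAE 1 (0.0583 to 0.127), and that of *Gpr124* in 3, up to an adjusted p of 0.214 without the block. Of the targets (for *Nkd1* 462 against 418 CPM), 0 of 5 passed. *Nkd1* was called higher without EAE 2 (0.20, adjusted p = 0.0165) or Adult 3 (0.0499), *Tcf7* lower without a filter (0.0202) or Adult 1 (0.0251), and the receptor *Fzd4* higher without EAE 2 (0.0360).

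**Figure D3:**
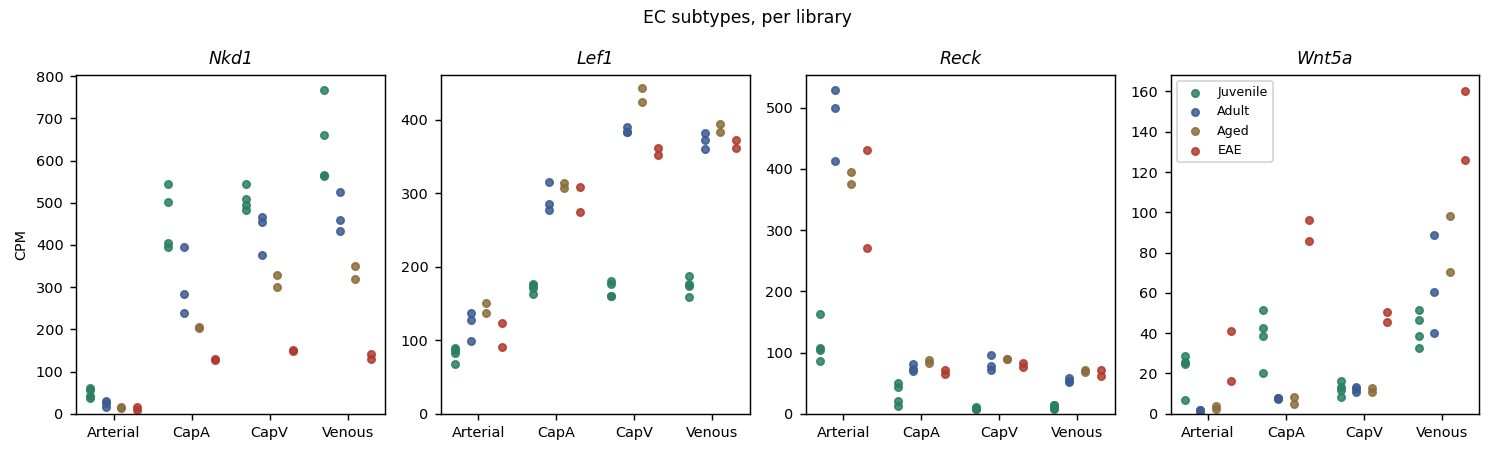
CPM of members in EC subtypes, 1 point per library with at least 10 cells of the subtype. Nkd1 in arterial ECs stayed at or below 60.0 CPM while its CapV level ranged from 149 to 544 CPM, and Reck and Wnt5a had their highest medians in arterial and venous ECs (323 and 60.7 CPM), respectively.

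In juvenile samples, tip-marker ECs, named for the cells that lead growing sprouts, had less *Nkd1* than CapV ECs. They had 247 to 289 against 482 to 544 CPM (log2 fold change −0.89 ± 0.09, adjusted p = 5.66e-13, n = 4 with near-identical pairs counted apart). *Wnt5a* was also called lower (−1.55 ± 0.55, adjusted p = 0.0410), on 0 to 10.5 against 8.53 to 16.3 CPM, and this call was lost in 5 of 10 alternatives, with DESeq2 (0.217), without the library block (0.110) and without Juvenile 1, 2 or 4 (0.146 to 0.191). These were the only members called of 10 tested, beside 16.6% of the 8563 genes tested. *Tspan12* was called lower without a filter (−0.32, adjusted p = 0.0358) and with plain totals (−0.28, adjusted p = 0.0454).

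Levels of conditions inside subtypes were compared without a test. Some calls over all ECs were not seen in every subtype. *Nkd1* in tip-marker ECs was lower in juvenile (247 to 289 CPM) than in adult libraries (366 to 408 CPM), where it rested on 52, 19 and 16 UMIs in 26, 14 and 12 cells. Of the 756 cells of the tip-marker cluster, 233 and 219 were from EAE 1 and 2. Its leading genes held the tip markers *Apln* and *Angpt2*, but also *Lcn2* and *Mt2*, which the paper reports as higher in inflammatory ECs of EAE. Juvenile and adult *Axin2* overlapped in arterial ECs (20.8 to 52.4 and 12.8 to 45.9 CPM) and in CapA and tip-marker ECs. *Tcf7* overlapped between these ages in CapA ECs (53.1 to 79.4 and 53.4 to 70.5 CPM) and in tip-marker ECs. *Nkd1* overlapped in CapA ECs (395 to 544 and 239 to 396 CPM). *Tcf7* in arterial ECs of EAE (37.7 and 22.7 CPM) was not below adult (15.3 to 31.0 CPM). *Reck* in CapV ECs had 8.82, 10.4, 7.51 and 7.94 CPM in juvenile and 95.7, 70.9 and 78.3 CPM in adult libraries, and in arterial ECs 163, 107, 103 and 85.7 against 413, 528 and 500 CPM. *Tspan12* in arterial ECs was at 218 to 324 CPM in juvenile and 107 to 144 CPM in adult libraries. In venous ECs it went the other way, at 145 to 154 against 164 to 220 CPM. In CapA and CapV ECs its levels overlapped between the ages. *Wnt5a* in EAE was at 50.3 and 45.7 CPM in CapV ECs (10.9 to 13.1 CPM in adult), 96.1 and 86.0 CPM in CapA ECs (7.36 to 7.66 CPM in adult) and 160 and 126 CPM in venous ECs (39.9 to 88.9 CPM in adult), so the ECs of all 3 types were higher in both libraries. Juvenile *Wnt5a* was at 20.4 to 51.6 CPM in CapA ECs, above these adult values, and at 6.92 to 28.5 CPM in arterial ECs. Adult arterial ECs had 0 to 2.10 CPM, on 0 or 1 UMI each. In CapV and venous ECs juvenile and adult libraries overlapped. *Nkd1* in EAE was at 149 and 151 CPM in CapV and 143 and 129 CPM in venous ECs, below all libraries of the other conditions in both. In CapV ECs alone, *Reck* in juvenile samples had a log2 fold change of −3.19, beside −2.36 over all ECs, and −3.31 with the hemoglobin-led cluster left out.

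Pericytes and smooth muscle cells, clustered together as mural cells (61 to 218 per library), share the vessel wall with ECs. In mural cells *Lef1* was lower and *Gpr124* higher in juvenile than in adult samples, and 2 of the 6 members tested were called, beside 26% of the 6342 genes tested. *Lef1* had 10.5, 18.6, 5.70 and 14.5 CPM in juvenile against 42, 37.6 and 41.5 CPM in adult mural cells (log2 fold change −1.66 ± 0.47, adjusted p = 0.0163). The EC genes *Cldn5* (182 ± 93.8 against 614 ± 109 CPM) and *Slc2a1* (30.9 ± 9.78 against 256 ± 69.1 CPM) had the same direction in these mural sums, and their part in the result was not tested. With called doublets removed, *Lef1* no longer passed (−1.40, adjusted p = 0.0548). *Gpr124* had 84.6, 98.6, 102.6 and 101 CPM against 61.9, 51.7 and 60.0 CPM (0.63 ± 0.22, adjusted p = 0.0474). This call was lost in 12 of 20 alternatives: with the pairs summed (0.133), DESeq2 (0.206), no filter (0.0706), the replicate block (0.0643) and only adult and juvenile samples (0.0561), and with any 1 of the 7 juvenile and adult libraries left out (0.0560 to 0.135). Without Adult 1, 0 members were called by edgeR, and *Lef1* had an adjusted p of 0.114.

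*Reck* in mural cells was at 26.6, 20.5, 25.6 and 21.7 CPM in juvenile and 28.7, 37.6 and 18.5 CPM in adult libraries. The ages overlapped only through Adult 3, on 4 UMIs. With Adult 2 and 3 as 1 sample they did not overlap (23.6 ± 2.98 against 28.4 ± 0.496 CPM). The difference did not pass the test (log2 fold change −0.31 ± 0.34, adjusted p = 0.531). *Axin2* (56.4 ± 11.9 against 43.9 ± 16 CPM, adjusted p = 0.648), *Nkd1* (177 ± 58.9 against 106 ± 62.9 CPM, adjusted p = 0.214) and *Tspan12* (278 ± 32.2 against 163 ± 86.2 CPM, adjusted p = 0.0561) did not pass. *Nkd1* was called higher in 4 alternatives, without Adult 3 (1.20, adjusted p = 0.0189) or Juvenile 4 (0.0361), without a filter (0.0140) and with the replicate block (0.0370). *Tspan12* was called higher in 3, without a filter (0.00533), with plain totals (0.0359) and without Adult 3 (0.0322). The other 4 members were too low for the test. Of these, *Tcf7* had 29.5, 30.3, 25.6 and 47.0 CPM in juvenile and 8.84, 9.40 and 13.8 CPM in adult mural cells, without overlap. Of 28 other pathway and barrier genes tested in mural cells, 13 were called (46.4%, beside 26% of all genes). The ligand *Wnt5b* (108 ± 31.0 against 44.5 ± 12.9 CPM), *Dkk3*, a relative of the Dickkopf inhibitors (58.9 ± 5.26 against 14.6 ± 7.45 CPM), and *Ccnd1* (90.8 ± 3.92 against 10.3 ± 5.25 CPM) were higher in juvenile samples. Lower were the receptors *Fzd6* (29.9 ± 15.9 against 114 ± 32.5 CPM), *Lrp5* and *Ryk*, *Ctnnb1* (36.9 ± 16.2 against 99 ± 38.1 CPM) and *Znrf3* (71.6 ± 14.0 against 107 ± 3.87 CPM). The barrier genes *Abcb1a*, *Mfsd2a* and *Sox17* were lower too, along with *Slc2a1* and *Cldn5*. The part of EC transcripts in these lower calls, those of *Fzd6*, *Lrp5* and *Ctnnb1* included, was not tested.

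The juvenile to adult difference itself was compared between ECs and mural cells as an interaction. It was called for 3 of 10 members, beside 7.95% of the 13239 genes tested: *Reck* (EC minus mural log2 fold change −2.05 ± 0.34, adjusted p = 3.65e-06), *Axin2* (−1.12 ± 0.34, adjusted p = 0.0239) and *Tspan12* (−0.83 ± 0.22, adjusted p = 0.00977). The call of *Axin2* was lost in 5 of 16 alternatives, with DESeq2 (0.276) and without Juvenile 2 (0.0682), Juvenile 3 (0.0628), Juvenile 4 (0.0686) or Adult 2 (0.149). That of *Tspan12* was lost with DESeq2 (0.241) and without Juvenile 2 (0.0681), and it rested on Adult 1, whose mural cells had 102 CPM against 226 and 222 CPM in Adult 2 and 3, and without it the difference was −0.19 (adjusted p = 0.860). Calls were gained for *Nkd1* without Adult 3 (−0.88, adjusted p = 0.0434) and for *Apcdd1* without Juvenile 4 (3.13, adjusted p = 0.0438). For *Lef1*, lower in juvenile samples of both cell types, the interaction was 0.51 (adjusted p = 0.561).

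**Figure D4:**
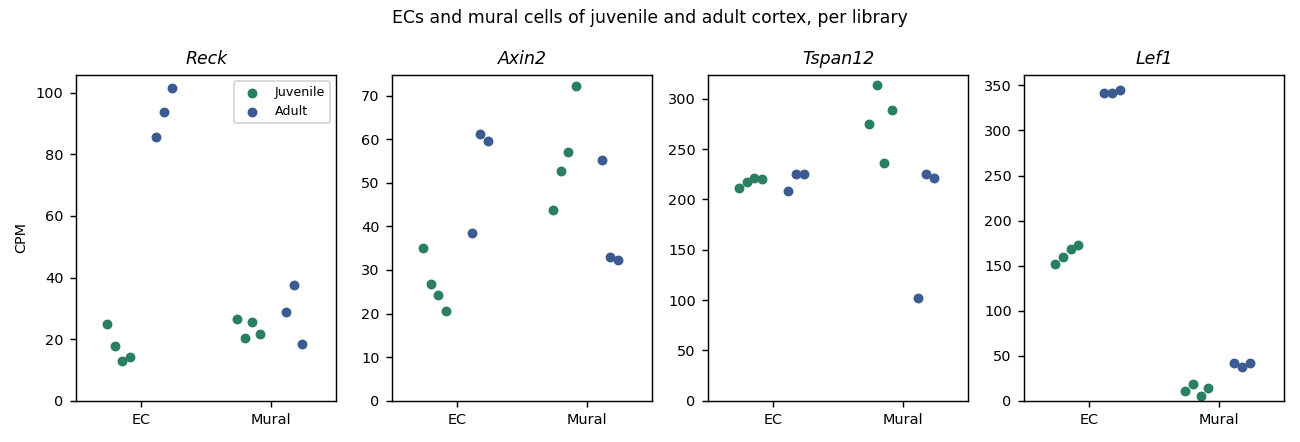
CPM of Reck, Axin2, Tspan12 and Lef1 in the summed ECs and mural cells of each juvenile (4) and adult (3) library. Reck was lower in juvenile than in adult ECs, with 12.9 to 24.8 against 85.7 to 101.5 CPM. Its mural levels overlapped only through Adult 3. Tspan12 in Adult 1 mural cells (102 CPM) lay apart from the other adult libraries.

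Across the cell types of the cortex, ECs had the highest median over samples of 6 members: *Lef1* (336.5 CPM), *Nkd1* (371 CPM), *Reck* (77.4 CPM), *Gpr124* (70.8 CPM), *Fzd4* (28.4 CPM) and *Apcdd1* (6.72 CPM). For *Gpr124* mural cells (66.9 CPM, 45.4 to 102.6) and for *Fzd4* fibroblasts (26.4 CPM, 7.46 to 40.4) were next, and their ranges overlapped with those of ECs (56.4 to 84.0 and 21.2 to 55.3 CPM). *Lef1* in T and natural killer cells was at 120 CPM (51.4 to 364), and *Reck* in fibroblasts at 39.5 CPM (22.4 to 51.4), inside the wide EC range of 12.9 to 102 CPM. For *Apcdd1*, ependymal cells (5.93 CPM, 0 to 9.10) lay inside the EC range (1.74 to 14.5 CPM), and adult fibroblasts, at 12.6 to 17.3 CPM on 1 UMI each, above adult ECs. These medians pool conditions, and the order was different in juvenile libraries. In all 4 of them *Reck* was higher in fibroblasts (34.7 to 41.5 CPM) and mural cells (20.5 to 26.6 CPM) than in the ECs of the library, and *Gpr124* higher in mural cells (84.6 to 102.6 CPM) than in ECs (66.6 to 84.0 CPM). *Lef1* was higher in T and natural killer cells (233 to 364 CPM) than in ECs in the 3 juvenile libraries with enough of these cells.

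*Axin2* and *Tspan12* were shared between vessel and glial cells. *Axin2* had medians of 40.7 CPM in mural cells, 35.5 CPM in ECs and 26.6 CPM in astrocytes, and *Tspan12* 217, 210 and 200 CPM in the same order, with overlapping ranges. *Tcf7* was highest in T and natural killer cells (130 CPM, 72.1 to 451) before ECs (59.7 CPM, 38.6 to 85.4). *Wnt5a* was highest in fibroblasts (55.3 CPM, 0 to 130), then in ependymal cells (32.3 CPM) and ECs (21.4 CPM, 13.8 to 86.8). Many of these types had few cells in some libraries.

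**Figure D5:**
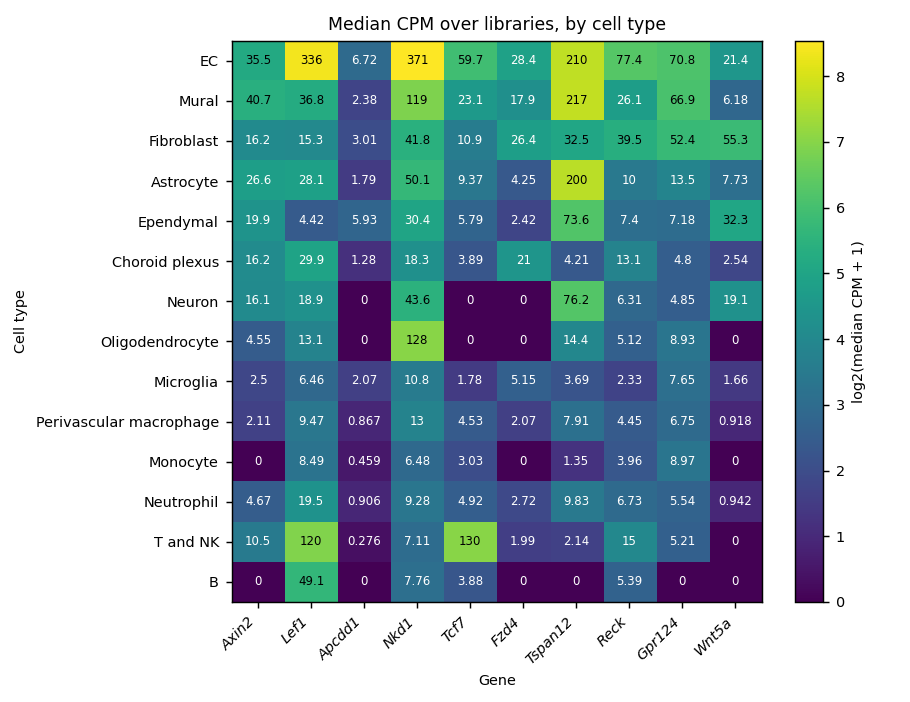
Heat map of the 10 members (columns) by cell type (rows), with the median CPM over libraries (Adult 2 and 3 as 1) printed in each cell and the colour showing log2(median CPM + 1). Over all conditions, ECs had the highest median for 6 members, mural cells for Axin2 and Tspan12, T and natural killer cells for Tcf7 and fibroblasts for Wnt5a.

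Over the 10 EC samples, 8 genes of 6144 were most like the mean standardized level of the 5 targets: *Mrps5*, *C130074G19Rik*, *Slc5a3*, *Rassf3*, *Gas2l1*, *Leo1*, *Btg1* and *Cadm1*, with Pearson's r of 0.906 to 0.942. The samples share libraries, pairs and conditions, so r is a description only. The mean of the targets hid opposite patterns: it ranged from −0.675 in EAE 2 to 0.719 in the sum of Adult 2 and 3, while *Lef1* was lowest and *Nkd1* highest in juvenile ECs.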

How the data were processed

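Single-cell libraries of myelin-depleted mouse cortex were analysed from the UMI count of each gene in each barcode, which the authors deposited without normalization. The submitters' processing notes name bcl2fastq 2.19.1.403, UMI-tools 0.5.3, STAR 2.5.3a, featureCounts 1.6.1 and mm10. Following the cell filter of the study's methods, barcodes needed over 500 genes, less than 6000 genes and a mitochondrial share below 25%. Cells were clustered in Seurat 5.3.0 (R 4.3.3, scale factor 10000, 2000 variable genes of which 1959 were used, 12 principal components, resolution 0.5) and ECs again after integration of the conditions, and clusters were named from marker lists. The members and Wnt lists were left out of both, barrier genes were not, and the rules for naming were settled with the clusters already in view. One cluster with markers of several types was set aside. Scrublet (scanpy 1.11.5) called 818 cells doublets (1.62%, but 2 in Aged 2), which were kept in the main analysis.

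Counts were summed per library and cell type with at least 10 cells, with Adult 2 and 3 as 1 sample, and tested in edgeR 4.0.16 by the quasi-likelihood method (robust, with TMM factors and the filterByExpr filter, Benjamini-Hochberg adjustment over all genes tested, calls at 0.05). All groups entered a fit, except that of tip-marker ECs, which held juvenile samples only. Subtype comparisons had the library as a block. SEs were taken from the log2 fold change and F. Mean CPM values use plain totals, so their ratios differ slightly from fitted fold changes. The analysis was tested on simulated counts with 200 changed genes.

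The members and gene lists were chosen with earlier results of these data known. All members are named. Of the other lists (ligands, receptors, cytoplasmic genes, inhibitors, feedback targets, barrier), called genes of at least 20 CPM are named, at most 5 per list and comparison by size of change. This was done only for ECs and mural cells against adult ones. *Cldn5* in mural cells is among the named genes. Elsewhere list genes were only counted. In arterial against CapV ECs 24 of 36 tested were called (66.7%, beside 30.7% of all genes), and in venous ECs 20 of 40 (50.0%, beside 29%). In juvenile tip-marker ECs it was 9 of 33 (27.3%, beside 16.6%), and for the EC and mural difference 12 of 59 (20.3%, beside 7.95%). Some results of the barrier list are not reported here. Genes like the targets are the 8 with the highest r among those of at least 20 CPM. The deviations of same-numbered libraries had an r of −0.135 to 0.217 over 13 pairs, beside −0.217 to 0.184 over 31 other pairs. In the aged and EAE groups, the 2 libraries mirror each other, so these values are not independent and cannot settle a pairing. Replicate numbers were not used as a block in the main fits. Alternatives were DESeq2 1.42.0, another normalization, no filter, other units, other cell naming, fewer groups, doublets removed and each library left out, and, chosen after seeing the data, plain library totals and ECs less a hemoglobin-led or a choroid-led cluster.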

Additional observations from a re-analysis of the deposited data

Results flagged for a closer look

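The difference between juvenile and adult samples was itself different in ECs and mural cells for 3 members, by the interaction term of the edgeR fit (EC minus mural log2 fold change). It was −2.05 for *Reck*, which was lower in juvenile ECs and did not pass the test in mural cells, −1.12 for *Axin2* and −0.83 for *Tspan12*. The call of *Axin2* was lost with DESeq2 (adjusted p = 0.276) and without Juvenile 2, 3 or 4 or Adult 2 (0.0628 to 0.149), and that of *Tspan12* with DESeq2 (0.241) and without Juvenile 2 (0.0681). The value of *Tspan12* went to −0.19 (adjusted p = 0.860) without Adult 1. No group of 4 libraries held a sample far from the others among the 20 groups tested.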

How the results depend on the processing

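Among alternatives, 0 called members changed direction. Counts of called genes and members are given where they moved. With near-identical pairs summed, juvenile against adult ECs had 2751 genes and 3 members, aged against adult 2 and 0, EAE against adult 643 and 3, and mural cells 632 and 1. There aged and EAE had 1 sample each, assumed to vary like the other groups. Aged against adult ECs had 1386 genes and 3 members without a filter, 1344 and 3 with 11 libraries on their own, 86 and 0 with only adult and aged samples, 3 members in CapV ECs alone and 2 with cells named by marker score. In CapV ECs less the hemoglobin-led cluster, aged had 412 and EAE 2400 genes. With DESeq2, mural cells had 1040 genes and 1 member, the EC and mural difference 515 and 1, and juvenile tip-marker ECs 792 and 1. Mural cells had 4 members without a filter and 1 without doublets. Without the library as a block, venous against CapV ECs had 344 genes and 1 member, and tip-marker ECs 1 member.

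With each library left out in turn, which for Adult 1 and any aged or EAE library leaves 1 sample in that group, assumed to vary like the others, calls ranged from 89 to 976 genes and 0 to 2 members in aged ECs, from 1733 (without EAE 1) to 3893 genes and 4 to 6 members in EAE ECs, from 843 (without Adult 1) to 1685 genes and 0 to 3 members in mural cells, from 660 (without Adult 1) to 1186 genes and 1 to 4 members for the EC and mural difference, and from 1 to 2 members in tip-marker ECs. The cause was not tested.

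The replicate number as a block, whose libraries share only a number, gave 6056 genes and 5 members in juvenile, 1282 and 1 in aged and 4351 and 5 in EAE ECs, and 1560 and 2 in mural cells, where *Gpr124* was lost (adjusted p = 0.0643) and *Nkd1* gained (0.85, 0.0370). *Apcdd1*, at 1.74 to 14.5 CPM in ECs, and the mural members rest on few counts, which limits what these depths can show.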
